A study of Mus musculus with 12 samples.

Results

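The 10 genes described here encode the enzymes that build and desaturate long-chain fatty acids and the factors that govern their transcription. They were selected by symbol, as *Acly*, *Me1*, *Acaca*, *Fasn*, *Elovl6*, *Scd1*, *Scd2*, *Srebf1*, *Mlxipl* and *Thrsp*, and all 10 were among the 24421 genes listed for each of 12 RNA-seq libraries. Newborn mice of 2 genotypes, Man1a2+/+ (WT) and Man1a2-/- (null), gave liver and lung, with 3 mice and so 3 libraries for each genotype and tissue. *Man1a2* encodes a Golgi mannosidase that trims N-linked glycans, and null pups, offspring of heterozygous parents of the line Man1a2tm1.1Ahe, lacked exon 2 of the gene from conception in every tissue. Pups without the gene die of respiratory failure, and tissue was taken within the first hour after birth. Whole tissue was sequenced, and a level is therefore an average over its cells.

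Fatty acid synthesis begins with citrate, which ATP citrate lyase (*Acly*) splits to give acetyl-CoA in the cytosol. Acetyl-CoA carboxylase 1 (*Acaca*) turns it into malonyl-CoA, and fatty acid synthase (*Fasn*) joins these units into palmitate with NADPH, some of which malic enzyme (*Me1*) supplies. *Elovl6* lengthens palmitate, and the stearoyl-CoA desaturases *Scd1* and *Scd2* insert a double bond into the product. *Srebf1* encodes the transcription factor SREBP-1, which responds to insulin and to sterol-sensing proteins, *Mlxipl* encodes ChREBP, which responds to glucose metabolites, and *Thrsp* encodes the small lipogenic protein Spot 14. Liver uses the pathway to store and export triacylglycerol, whereas alveolar type 2 cells of the lung use it for the phosphatidylcholine of surfactant, which the newborn needs with its first breaths.

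The promoters of *Fasn*, *Srebf1* and *Thrsp* are shown because *Fasn* and *Srebf1* followed each other across the libraries and *Thrsp* departed from both in lung. Each window runs from 250 bases before to 50 bases after an annotated transcription start, was taken from RefSeq on GRCm38.p6, and is written 5′ to 3′ on the strand of the gene. Capitals mark a CCAAT box (CCAAT, or ATTGG on the other strand) or a GC box (GGGCGG, or CCGCCC on the other strand). For *Srebf1*, which has 3 windows, the one at its most downstream start is shown.
*Fasn*, chr11:120824498-120824797, minus strand: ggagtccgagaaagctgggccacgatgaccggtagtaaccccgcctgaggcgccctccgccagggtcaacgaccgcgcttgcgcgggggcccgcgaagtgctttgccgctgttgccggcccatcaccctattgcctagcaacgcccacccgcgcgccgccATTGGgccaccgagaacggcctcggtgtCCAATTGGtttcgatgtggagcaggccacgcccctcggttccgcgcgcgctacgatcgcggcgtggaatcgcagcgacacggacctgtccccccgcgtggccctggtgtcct
*Srebf1*, chr11:60210422-60210721, minus strand: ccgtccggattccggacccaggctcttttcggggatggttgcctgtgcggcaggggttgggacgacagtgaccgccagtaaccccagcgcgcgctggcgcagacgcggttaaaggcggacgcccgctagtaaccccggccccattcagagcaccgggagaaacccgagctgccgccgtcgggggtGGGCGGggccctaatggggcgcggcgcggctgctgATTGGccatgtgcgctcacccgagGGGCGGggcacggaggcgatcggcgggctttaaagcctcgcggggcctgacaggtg
*Thrsp*, chr7:97417501-97417800, minus strand: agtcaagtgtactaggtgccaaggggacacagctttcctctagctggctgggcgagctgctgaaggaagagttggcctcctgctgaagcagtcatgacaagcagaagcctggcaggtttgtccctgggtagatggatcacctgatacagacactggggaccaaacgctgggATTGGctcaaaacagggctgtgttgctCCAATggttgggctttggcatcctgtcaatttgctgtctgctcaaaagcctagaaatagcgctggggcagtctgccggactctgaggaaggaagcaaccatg

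RefSeq gave 12 such windows for 8 of the 10 genes, and none for *Scd1* and *Scd2*. A CCAAT box stood in 7 of the 12 windows, belonging to 6 genes, and in 37.4% of the 32851 windows of all genes. In the *Fasn* window, a CCAAT box was found at bases −90, −62 and −59 from the start, the last pair sharing letters on opposite strands. The *Thrsp* window held it at −79 and −52, and the *Srebf1* window held a single one at −30 between GC boxes at −65 and −6. GC boxes stood in 5 of the 12 windows, of 4 genes, and in 35.7% of all windows. The E-box CACGTG, searched on both strands, was found in 1 of the 12 windows, at the upstream start of *Mlxipl*, and in 7.15% of all windows. The sterol regulatory element TCACNCCAC was likewise found in 1 of the 12, at the second *Mlxipl* start, and in 1.24% of all windows. These matches describe letters in a short window, and no binding was measured.

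The libraries held between 26759463 and 42914295 counted reads. Before scaling with TMM factors, 3 reads corresponded to 0.0699 to 0.112 CPM (reads scaled to a common library size), a limit that covers counting error only. Levels are given as CPM scaled with TMM factors over the 12 libraries, so that they can be compared between libraries. On that scale 3 reads stood, for example, at 0.0538 CPM in WT lung 1 and 0.124 CPM in WT liver 2. *Man1a2* itself stood at 87.0, 54.2 and 68.6 CPM in WT livers 1, 2 and 3 and at 53.7, 48.2 and 50.2 CPM in null livers, and at 105, 75.6 and 107 CPM in WT lungs against 42.7, 49.8 and 50.2 CPM in null lungs. In both tissues the null libraries were all lower than the WT libraries (log2 fold change −0.47 in liver and −1.01 in lung, adjusted p = 0.0809 and 0.0614 from edgeR, of which DESeq2 called both), and exons that remain in the allele contribute to these counts. The 8 hepatocyte markers summed to 182447 to 277756 CPM in the livers. The library labelled null lung 1 went against its label. Its 8 alveolar type 2 markers summed to 101 CPM, against 20700 to 26728 CPM in the other 5 lung libraries, and all 8 were lower than in any of those. *Sftpc*, the surfactant protein that defines these cells, was at 26.6 CPM there and at 11908 to 17387 CPM in the others. Its 8 heart and skeletal muscle markers summed to 19071 CPM, against 86.0 to 308 CPM. *Adipoq* and *Ucp1*, of white and brown adipocytes, were at 6.02 and 14.5 CPM, against at most 0.0606 and 0.203 CPM in the other lungs. Without this library, *Man1a2* had −0.95 in lung (SE 0.16, adjusted p = 0.0043 from edgeR). Null liver 1 also carried muscle genes, with a marker sum of 6723 CPM against at most 10.4 CPM in the other livers. Lung results are therefore given with and without the library labelled null lung 1, and counts of genes called in liver also without null liver 1.

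WT liver and WT lung were compared first, to see how each tissue deploys the pathway. *Fasn*, *Scd1*, *Scd2* and *Me1* stood several-fold higher in lung, *Mlxipl*, *Elovl6* and *Thrsp* higher in liver, and *Acly*, *Acaca* and *Srebf1* differed by at most 1.46-fold. All 10 genes were called, 3 higher and 7 lower in liver, where 77.0% of the 15635 genes tested were called, 37.2% higher and 39.8% lower in liver. A gene was called at an adjusted p under 0.05 and a difference of at least 1.2-fold, as edgeR's quasi-likelihood fit gave them after Benjamini-Hochberg adjustment over all genes tested. The median log2 fold change (liver over lung) of the 10 genes was −0.41, beside −0.04 over all genes tested. For each gene the 3 WT livers did not overlap the 3 WT lungs, as was so for 80.6% of 16155 genes, and the two-sided exact permutation test gave 0.1, the smallest p that 3 against 3 allows. In whole tissue, fewer cells of a type and less RNA per cell cannot be told apart.

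*Acly*, the source of cytosolic acetyl-CoA, lies at chr11:100476353-100528000 on the minus strand of GRCm38 (GENCODE M21). It was at 137, 159 and 149 CPM in WT livers 1, 2 and 3 and at 175, 194 and 174 CPM in WT lungs. The tissues were close, with a log2 fold change of −0.28 (SE 0.10, adjusted p = 0.0287 from edgeR), and the call held in 3 of 6 fits that each left out a library. *Acaca*, at chr11:84129672-84401651 on the plus strand, was as close, at 31.8, 32.7 and 30.5 CPM in liver and 44.8, 35.6 and 35.8 CPM in lung. Its log2 fold change was −0.28 (SE 0.11, adjusted p = 0.0374 from edgeR), again called in 3 of 6 such fits. *Me1*, at chr9:86581371-86695953 on the minus strand, was at 17.1, 23.0 and 17.5 CPM in liver and 44.4, 50.1 and 57.7 CPM in lung. All 3 lungs lay above all 3 livers, and the gene was 2.63-fold lower in liver (log2 fold change −1.39, SE 0.14, adjusted p = 1.12e-05 from edgeR). An antisense gene, *A330041J22Rik*, shares exon positions with *Me1*, and because the strand setting of the counting was not given in the sources used here, reads of the pair cannot be told apart.

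*Fasn* (chr11:120805846-120824547, minus strand) was at 63.2, 41.3 and 64.3 CPM in WT livers and at 234, 212 and 178 CPM in WT lungs. The lowest lung stood far above the highest liver, and the fitted level was 3.66-fold lower in liver (log2 fold change −1.87, SE 0.19, adjusted p = 1.26e-05 from edgeR). *Scd1* (chr19:44394455-44407879, minus strand) was at 81.8, 48.4 and 40.4 CPM in liver and at 378, 301 and 305 CPM in lung, 5.71-fold lower in liver. *Scd2* (chr19:44293674-44306864, plus strand), its neighbour and close paralog, was at 84.6, 80.7 and 81.0 CPM in liver and at 633, 587 and 481 CPM in lung, 6.85-fold lower in liver. The log2 fold changes of the desaturases were −2.51 (SE 0.25, adjusted p = 1.32e-05 from edgeR) and −2.78 (SE 0.14, adjusted p = 1.32e-07 from edgeR). Paralogs could have shared reads, so the division between them is uncertain. *Elovl6* (chr3:129532355-129638495, plus strand) went the other way, at 34.7, 48.3 and 41.4 CPM in liver and 7.48, 10.4 and 7.55 CPM in lung. It was 4.95-fold higher in liver (log2 fold change 2.31, SE 0.16, adjusted p = 1.1e-06 from edgeR), and antisense *Gm35986* shares exon positions with it.

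Among the regulators, *Srebf1* (chr11:60199089-60222581, minus strand) was at 53.3, 47.6 and 59.0 CPM in WT livers and 85.1, 77.1 and 73.9 CPM in WT lungs, 1.46-fold lower in liver (log2 fold change −0.55, SE 0.11, adjusted p = 0.00105 from edgeR). Part of *Rai1*, on the opposite strand, shares exon positions with it. *Mlxipl* (chr5:135089890-135138382, plus strand) was nearly a liver gene here, at 31.2, 39.8 and 36.9 CPM in liver and 1.11, 1.0 and 1.39 CPM in lung. That was 30.9-fold higher in liver (log2 fold change 4.95, SE 0.16, adjusted p = 9.76e-09 from edgeR), and antisense *Gm43500* shares exon positions with it. *Thrsp* (chr7:97412938-97417730, minus strand) was low in both tissues, at 5.52, 1.28 and 1.57 CPM in liver and 0.915, 0.685 and 0.640 CPM in lung. WT liver 1 stood above the other livers, and the log2 fold change of 1.91 (SE 0.54, adjusted p = 0.00886 from edgeR) was 0.95 without that library. Scaling to total counts moved the median over all genes to −0.83. Under it all 10 genes kept their direction, 9 of them called, beside 84.0% of all genes. With trends on GC content and gene length removed, *Acaca* turned to 0.39 (adjusted p = 0.00381 from edgeR), *Fasn* moved to −1.09, and *Acly* (−0.09) and *Srebf1* (−0.07) were no longer called.

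**Figure D1:**
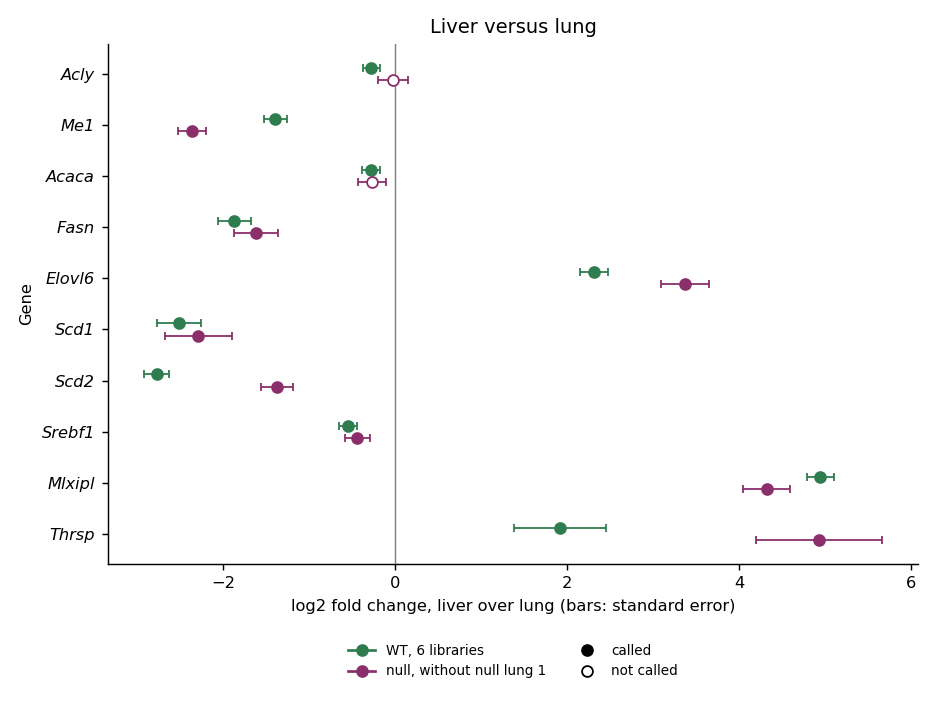
log2 fold change of liver over lung for the 10 genes (x axis; above 0 is higher in liver), in WT mice (6 libraries) and in null mice without the library labelled null lung 1 (5 libraries). Points are edgeR estimates, bars standard errors, and filled points passed the call; *Mlxipl* at 4.95 in WT and *Scd2* at −2.78 in WT mark the ends of the WT range.

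The same contrast in null mice, without the library labelled null lung 1, called 8 of the 10 genes, 3 higher and 5 lower in liver, with 60.7% of 15728 genes called, 29.6% higher and 31.2% lower. *Acly* (log2 fold change −0.02) and *Acaca* (−0.27) were not called. *Scd2* was 2.60-fold lower in null liver than in null lung, beside 6.85-fold in WT, and *Me1* 5.16-fold lower, beside 2.63-fold in WT. *Elovl6* was 10.3-fold higher in null liver, beside 4.95-fold in WT. Whether these genotypes differ is the subject of the interaction test further on. With the library labelled null lung 1 included, 4 of the 10 were called, where 45.8% of all genes were.

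Per kilobase of exon, which allows genes to be compared, *Acly* led in WT liver at 28.0 ± 2.07 CPM per kb (SD, n = 3), above *Scd2* at 15.0 ± 0.398, *Scd1* at 11.6 ± 4.49 and *Srebf1* at 9.46 ± 1.01 CPM per kb. *Scd2* and *Scd1* overlapped in range, as did *Scd1* and *Srebf1*. *Mlxipl*, *Elovl6*, *Fasn* and *Me1* followed between 6.49 and 4.98 CPM per kb, each overlapping its neighbour, and *Acaca* (1.86) and *Thrsp* (1.28) came last and overlapped. WT lung was led by *Scd2* at 104 ± 14.3, then *Scd1* at 67.1 ± 8.90, *Acly* at 34.3 ± 2.12 and *Fasn* at 19.0 ± 2.61 CPM per kb, with no overlap between neighbours. *Srebf1* (14.0) and *Me1* (13.2) overlapped, and *Acaca* (2.27), *Elovl6* (1.32), *Thrsp* (0.341) and *Mlxipl* (0.211) closed the order without overlap. In null liver the desaturases moved to the top, *Scd2* at 60.7 ± 8.19 and *Scd1* at 47.2 ± 17.7 CPM per kb, overlapping each other, and *Scd1* overlapped *Acly* at 30.4 ± 4.98. Null lungs 2 and 3 were led by *Scd1*, at 292 and 164 CPM per kb, and *Scd2*, at 170 and 141 CPM per kb, whose ranges overlapped. *Scd1* made up 35.8% to 51.9% of the summed length-scaled reads of the desaturase pair in WT livers, 35.8% to 48.5% in null livers, 36.4% to 41.4% in WT lungs, and 63.1% and 53.7% in null lungs 2 and 3. The last range lay above all 3 WT lungs, while the liver ranges overlapped.

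**Figure D2:**
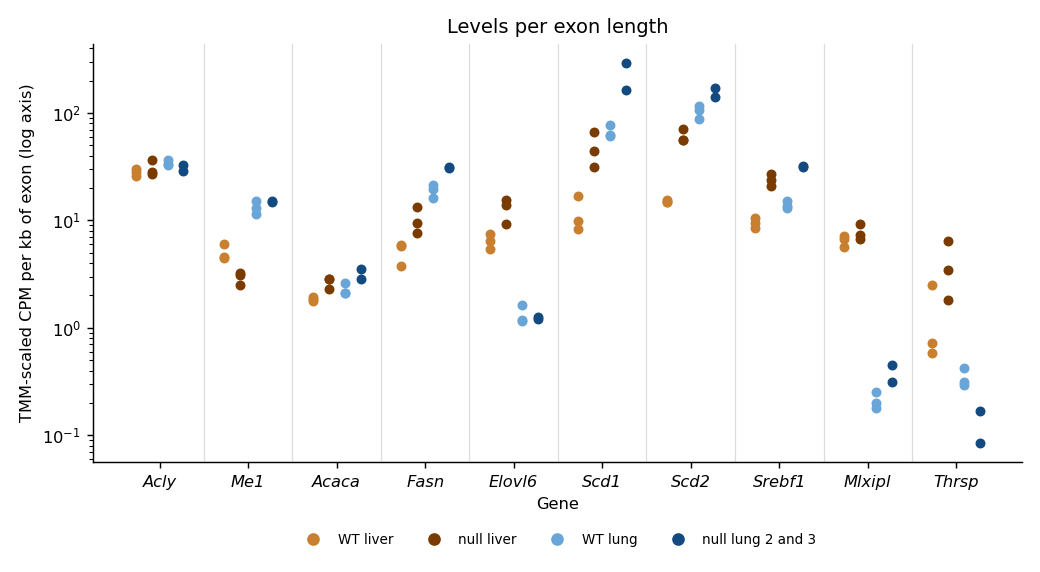
TMM-scaled CPM per kb of exon (y axis, log scale) of each gene in each library, by group; 1 point is 1 library, and the library labelled null lung 1 is left out. *Scd2* and *Scd1* head the WT lung libraries at means of 104 and 67.1 CPM per kb, and *Mlxipl* stands at 0.211 CPM per kb in WT lung beside 6.49 in WT liver.

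In liver, null mice were compared with WT mice to ask what loss of *Man1a2* changes in that organ at birth. The desaturases *Scd1* and *Scd2* rose 4.04-fold and 4.03-fold, *Srebf1* 2.51-fold, and *Elovl6*, *Fasn* and *Acaca* by smaller amounts, whereas *Me1* fell. *Acly*, *Mlxipl* and *Thrsp* did not pass the test. The test called 7 of the 10, with 6 higher in null and 1 lower, where 26.9% of the 14343 genes tested were called, 13.5% higher and 13.4% lower. The median log2 fold change of the 10 was 0.99, beside 0.02 over all genes tested. The 3 null livers did not overlap the 3 WT livers for these 7 genes, as was so for 42.7% of 16155 genes. Without null liver 1, which carried muscle genes, 7 genes were again called, 6 higher and 1 lower, with 23.8% of all genes called. Leaving out WT liver 3 lowered the number to 4, which were *Scd1*, *Scd2*, *Srebf1* and *Me1*, and the share of all genes called to 11.3%.

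*Scd2* was at 84.6, 80.7 and 81.0 CPM in WT livers and at 306, 384 and 306 CPM in null livers 1, 2 and 3. The null livers stood far above WT livers that differed little among themselves, and the log2 fold change was 2.01 (SE 0.13, adjusted p = 0.00164 from edgeR). *Scd1*, the desaturase that dominates in adult liver, was at 81.8, 48.4 and 40.4 CPM in WT and at 217, 324 and 153 CPM in null livers. Its libraries spread more, but the lowest null liver was still above the highest WT liver, and the log2 fold change was 2.01 (SE 0.35, adjusted p = 0.00739 from edgeR). Both were called in all 6 fits that left out a library.

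*Srebf1* stood at 53.3, 47.6 and 59.0 CPM in WT and at 133, 151 and 118 CPM in null livers. Every null liver stood far above the highest WT liver, with a log2 fold change of 1.33 (SE 0.13, adjusted p = 0.0022 from edgeR), called in all 6 such fits. *Mlxipl*, the glucose-responsive regulator, was at 31.2, 39.8 and 36.9 CPM in WT and at 37.1, 51.3 and 40.2 CPM in null livers. These ranges overlapped, and its log2 fold change was 0.25 (SE 0.15, adjusted p = 0.233 from edgeR). *Thrsp* was at 5.52, 1.28 and 1.57 CPM in WT and 7.58, 14.1 and 3.95 CPM in null livers. WT liver 1 exceeded null liver 3, and the log2 fold change of 1.59 (SE 0.65) missed the threshold (adjusted p = 0.106 from edgeR), while the fit without WT liver 1 called it at 2.58 and DESeq2 called it at 1.60.

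*Fasn* was at 63.2, 41.3 and 64.3 CPM in WT and 84.2, 104 and 146 CPM in null livers. Its groups did not overlap, and its log2 fold change was 0.98 (SE 0.25, adjusted p = 0.0263 from edgeR), called in 2 of the 6 fits with a library left out and lost without any WT liver or null liver 3. *Elovl6* was at 34.7, 48.3 and 41.4 CPM in WT and 59.4, 89.2 and 99.2 CPM in null livers, a log2 fold change of 1.0 (SE 0.21, adjusted p = 0.0134 from edgeR). *Acaca*, which makes the malonyl-CoA that *Fasn* uses, was at 31.8, 32.7 and 30.5 CPM in WT and 39.4, 48.1 and 48.9 CPM in null livers. It rose by a log2 fold change of 0.52 (SE 0.11, adjusted p = 0.0157 from edgeR), and with GC content and length trends removed its value of 0.33 was not called (adjusted p = 0.0890 from edgeR). *Me1* was the gene that fell, at 17.1, 23.0 and 17.5 CPM in WT and 9.58, 12.4 and 11.9 CPM in null livers. All null livers lay below all WT livers, with a log2 fold change of −0.76 (SE 0.17, adjusted p = 0.0166 from edgeR), called in 5 of 6 fits with a library left out. *Acly*, at the head of the pathway, was at 137, 159 and 149 CPM in WT and 148, 191 and 143 CPM in null livers, ranges that overlapped (log2 fold change 0.11, SE 0.14, adjusted p = 0.563 from edgeR).

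Markers of other cells moved with genotype in part of the liver lists. The 7 adipocyte markers summed to 191 to 233 CPM in WT and 276 to 389 CPM in null livers, with 3 of 7 above and 1 of 7 below all WT livers. Among the 3 was *Pnpla2*, a lipase of many tissues, at 60.1 to 96.8 CPM in WT and 147 to 224 CPM in null livers. The defining adipocyte markers *Adipoq* and *Plin1* were at no more than 0.302 and 0.0755 CPM in any liver. The sums of the 8 hepatocyte markers (182447 to 233877 CPM in WT, 200205 to 277756 in null), of the 6 lipofibroblast markers (1682 to 1961 and 1852 to 1983), of the 8 red cell precursor markers (2268 to 2876 and 2080 to 3732, with *Hbb-bt*, *Hba-a1* and *Hba-a2* listed at 0 in every library), and of the 6 neutrophil markers (2110 to 4403 and 3027 to 4835) overlapped between genotypes. Within the lipofibroblast list, 1 of 6 markers lay above and 2 of 6 below all WT livers. Among the latter, *Plin2* was at 667 to 901 CPM in WT and 192 to 403 CPM in null livers. Brown adipocyte markers, 6 in number, summed to 40.7 to 48.6 CPM in WT and 50.5 to 95.9 CPM in null livers. Of these sums *Ppargc1a* made up 35.9 to 45.3 CPM in WT and 44.8 to 71.3 CPM in null livers. *Ucp1* was at 0 to 2 reads, and 2 of the 6 lay above all WT livers. The part of these sums in the results was not tested.

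**Figure D3:**
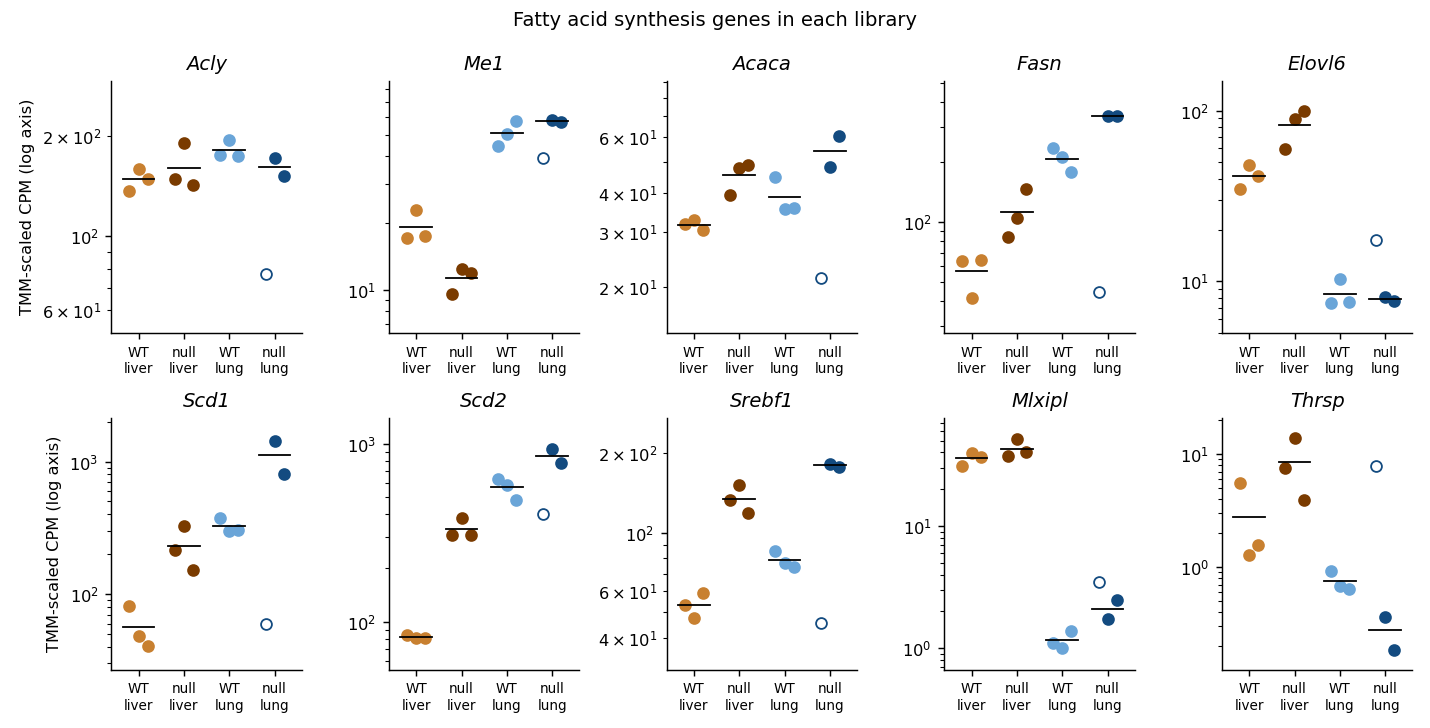
TMM-scaled CPM (y axis, log scale) of each of the 10 genes in every library; 1 point is 1 library, open circles are the library labelled null lung 1, and black lines are group means, for null lung the mean of libraries 2 and 3. *Scd2* shows the null livers at 306 to 384 CPM above WT livers at 80.7 to 84.6 CPM, and *Thrsp* shows null lungs 2 and 3 below the WT lungs.

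In lung, the comparison of null with WT mice depended on the library labelled null lung 1. With all 6 libraries, 0 of the 10 genes were called by edgeR, 1 had an unadjusted p under 0.05, and 0.327% of the 15591 genes tested were called. Of the 10, *Acly* and *Mlxipl* did not overlap between genotypes with all 6 libraries, as was so for 35.2% of 16155 genes. DESeq2 called *Mlxipl* alone, at a log2 fold change of 1.14. The library labelled null lung 1 had the lowest level of the 6 for *Acly*, *Me1*, *Acaca*, *Fasn*, *Scd1*, *Scd2* and *Srebf1*, and the highest for *Elovl6*, *Mlxipl* and *Thrsp*. Without it, 7 genes were called, where 37.0% of the 15885 genes tested were called, 18.0% higher and 19.0% lower. *Scd1*, *Srebf1*, *Mlxipl*, *Fasn*, *Scd2* and *Acaca* rose and *Thrsp* fell. The median log2 fold change of the 10 was then 0.53, beside −0.01 over all genes tested. Null lungs 2 and 3 did not overlap the WT lungs for 8 of the 10 genes, as was so for 60.7% of 16155 genes, and with 3 against 2 the two-sided exact permutation test cannot fall below 0.2.

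*Scd1* was at 378, 301 and 305 CPM in WT lungs and at 59.4, 1426 and 802 CPM in null lungs 1, 2 and 3. Null lungs 2 and 3 were well above every WT lung, and the library labelled null lung 1 was below them all. Without that library the log2 fold change was 1.75 (SE 0.22, adjusted p = 0.00161 from edgeR), and with it 1.21 (SE 0.94, adjusted p = 0.450). *Scd2* was at 633, 587 and 481 CPM in WT and 401, 930 and 772 CPM in null lungs. It rose less, by 0.58 on the log2 scale (SE 0.14, adjusted p = 0.0154 from edgeR) without the library labelled null lung 1, against 0.30 (SE 0.33, adjusted p = 0.596) with it. *Srebf1* was at 85.1, 77.1 and 73.9 CPM in WT and at 45.4, 182 and 178 CPM in null lungs. Null lungs 2 and 3 agreed closely, and the log2 fold change was 1.19 (SE 0.10, adjusted p = 0.000588 from edgeR) without the library labelled null lung 1 and 0.78 (SE 0.49, adjusted p = 0.363) with it.

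*Fasn* followed the same order, at 234, 212 and 178 CPM in WT and 44.2, 339 and 341 CPM in null lungs. Its log2 fold change was 0.70 (SE 0.13, adjusted p = 0.00559 from edgeR) without the library labelled null lung 1 and 0.21 (SE 0.69, adjusted p = 0.872) with it. *Acaca* was at 44.8, 35.6 and 35.8 CPM in WT and 21.4, 48.2 and 60.5 CPM in null lungs. The margin between null lung 2 and WT lung 1 was narrow, and the log2 fold change was 0.48 (SE 0.15, adjusted p = 0.0387 from edgeR) without the library labelled null lung 1 and 0.16 (SE 0.37, adjusted p = 0.811) with it. *Mlxipl* was low throughout, at 1.11, 1.0 and 1.39 CPM in WT and 3.48, 1.74 and 2.49 CPM in null lungs. All null lungs lay above all WT lungs, with a log2 fold change of 0.85 (SE 0.28, adjusted p = 0.0464 from edgeR) without the library labelled null lung 1 and 1.14 (SE 0.36, adjusted p = 0.137) with it.

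*Thrsp* was counted at 51, 26 and 29 reads in WT lungs (0.915, 0.685 and 0.640 CPM) and at 277, 18 and 10 reads in null lungs (7.90, 0.364 and 0.185 CPM). Null lungs 2 and 3 were below all WT lungs, and the library labelled null lung 1 was above them. Its direction turned on that library, with a log2 fold change of −1.46 (SE 0.41, adjusted p = 0.0264 from edgeR) without it and 1.92 (SE 1.37, adjusted p = 0.413) with it. *Acly*, at 175, 194 and 174 CPM in WT and 77.0, 171 and 151 CPM in null lungs, had a log2 fold change of −0.18 (SE 0.11, adjusted p = 0.224 from edgeR) without that library and −0.45 (SE 0.30, adjusted p = 0.381) with it. *Me1*, at 44.4, 50.1 and 57.7 CPM in WT and 39.2, 58.2 and 57.3 CPM in null lungs, had 0.18 (SE 0.13, adjusted p = 0.305 from edgeR) without it and 0.02 (SE 0.20, adjusted p = 0.954) with it. *Elovl6*, at 7.48, 10.4 and 7.55 CPM in WT and 17.5, 8.13 and 7.71 CPM in null lungs, had −0.10 (SE 0.19, adjusted p = 0.712 from edgeR) without it and 0.40 (SE 0.38, adjusted p = 0.542) with it, so that its sign turned on that library as well. These last 3 genes were not called in either fit.

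Cell type markers in null lungs 2 and 3 were compared with the WT lungs. The 8 alveolar type 2 markers summed to 20700 and 26728 CPM, beside 20995 to 24343 CPM in WT, but 2 of 8 lay above and 2 of 8 below every WT lung. The 6 alveolar type 1 markers summed to 1861 and 2244 CPM, below 2651 to 2790 CPM in WT, with 4 of 6 lower than in every WT lung. The 7 adipocyte markers summed to 212 and 286 CPM, above 119 to 133 CPM in WT, with 2 of 7 above and 1 of 7 below every WT lung. *Adipoq* was at no more than 3 reads in any of the 5 libraries, and *Pnpla2* was at 171 and 233 CPM against 72.8 to 74.8 CPM. The 6 brown adipocyte markers summed to 50.5 and 56.5 CPM against 10.9 to 15.2 CPM, with 4 of 6 above every WT lung and 0 below. Of these sums *Ppargc1a* made up 42.7 and 29.1 CPM, *Dio2* 4.79 and 25.3 CPM, and *Ucp1* no more than 0.203 CPM. In WT lungs *Dio2* was at 0.618 to 0.895 CPM. Neutrophil markers summed to 472 and 486 CPM against 181 to 295 CPM, and muscle markers to 225 and 308 CPM against 86.0 to 131 CPM. Hepatocyte markers summed to 1220 and 1678 CPM against 534 to 1081 CPM. Above every WT lung lay 3 of 6 neutrophil, 6 of 8 muscle and 1 of 8 hepatocyte markers. Summed lipofibroblast markers overlapped, at 546 and 621 CPM beside 593 to 661 CPM, but 2 of 6 lay above and 3 of 6 below every WT lung. Among the latter, *Plin2* was at 125 to 146 CPM in WT and 97.7 and 69.6 CPM in null lungs 2 and 3. Red cell precursor markers overlapped in sum, at 192 and 281 CPM beside 98.9 to 294 CPM. So did thymus markers, at 1.37 and 1.68 CPM beside 0.640 to 7.26 CPM. What part these cells have in the lung results was not tested.

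**Figure D4:**
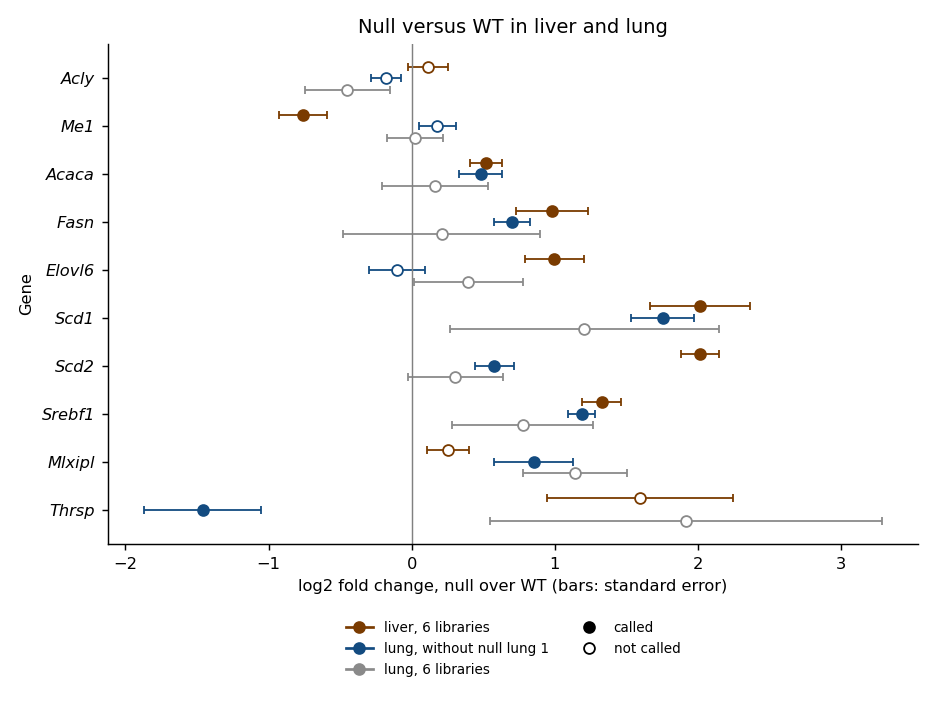
log2 fold change of null over WT (x axis) for the 10 genes in liver (6 libraries), in lung without the library labelled null lung 1 (5 libraries) and in lung with it (6 libraries). Points are edgeR estimates, bars standard errors, and filled points passed the call; 7 genes are filled in liver, 7 in lung without that library and 0 with it.

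Whether the effect of genotype differed between the tissues was tested as an interaction, lung minus liver, in 1 fit. With all 12 libraries, 0 of the 10 genes differed, 3 had an unadjusted p under 0.05, and 0.371% of the 16155 genes tested were called, while DESeq2 called *Scd2*. Without the library labelled null lung 1, *Scd2* and *Me1* differed, where 5.0% of 16257 genes were called. *Scd2* rose 4.03-fold in liver and 1.49-fold in lung, a difference of −1.41 on the log2 scale (SE 0.23, adjusted p = 0.0108 from edgeR). *Me1* fell in liver and had 0.18 in lung, a difference of 0.96 (SE 0.22, adjusted p = 0.0374 from edgeR). *Elovl6*, with 1.0 in liver and −0.10 in lung, differed by −1.08 (SE 0.32, adjusted p = 0.0816 from edgeR), and *Thrsp*, with 1.59 and −1.46, by −3.03 (SE 0.97, adjusted p = 0.102), neither of which passed. *Scd1* (−0.24, SE 0.50), *Srebf1* (−0.12, SE 0.18), *Fasn* (−0.26, SE 0.34) and *Acaca* (−0.02, SE 0.20) had differences smaller than their standard errors, and *Acly* (−0.27, SE 0.19) and *Mlxipl* (0.61, SE 0.28) did not pass.

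Liver and lung libraries of the same genotype and number deviated together, so the replicate number was also used as a block. Without the library labelled null lung 1, the block called 4 of the 10 genes, with 5.77% of all genes called. These were *Scd2* (−1.47, adjusted p = 0.0134 from edgeR), *Me1* (0.83, adjusted p = 0.0451), *Elovl6* (−1.28, adjusted p = 0.00850) and *Thrsp* (−3.18, adjusted p = 0.0186). Leaving out null liver 1 as well, without the block, gave *Scd2* (−1.50, adjusted p = 0.00718 from edgeR) and *Elovl6* (−1.29, adjusted p = 0.0152), while *Me1* was at 0.83 (adjusted p = 0.0525), with 5.18% of all genes called. Of the 10 genes, the difference in *Scd2* was therefore called in each of these fits without the library labelled null lung 1. It was called in none of the edgeR fits that included that library. With the block, null liver 1 had no lung of its number left, so it did not weigh on the difference. The block fit and the fit without null liver 1 thus drew the difference from the same libraries and are not separate evidence. For *Thrsp* the sign of the difference was positive, 0.29, with all 12 libraries.

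Genes of neighbouring steps were read in the same fits as 5 lists, drawn up by function, and their counts stand beside 26.9% of all genes called in liver, 23.8% there without null liver 1, and 37.0% in lung without the library labelled null lung 1. Carbon and NADPH supply had 12 genes tested in liver, of which 2 were called, both higher in null, beside 26.9% of all genes, and 3 without null liver 1, beside 23.8%. These were *Acss2*, which makes acetyl-CoA from acetate, with a log2 fold change of 1.03 (SE 0.26, adjusted p = 0.0246 from edgeR), at 14.4 to 18.4 CPM in WT and 20.4 to 43.8 CPM in null livers, and *Tkt*, the transketolase of the pentose phosphate pathway, with 0.40 (SE 0.11, adjusted p = 0.0351). In lung without the library labelled null lung 1, 3 of 12 were called, 2 higher and 1 lower, beside 37.0% of all genes. Among them were *Pklr*, of glycolysis, at 1.29 (1.03 with that library), and *Idh1*, an NADPH source, at −0.84 (−0.74 with it). The medians were 0.13 in liver and 0.06 in lung, beside 0.02 and −0.01 over all genes.

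The other carboxylase, elongases and desaturases numbered 13 tested in liver, of which 1 rose and 2 fell, beside 26.9% of all genes called. Without null liver 1 the number called was 2, 1 in each direction. *Tecr*, which completes each elongation cycle, rose by 0.52 on the log2 scale (SE 0.13, adjusted p = 0.0267 from edgeR). *Elovl2*, an elongase of polyunsaturated chains, was at 817 to 939 CPM in WT and 562 to 585 CPM in null livers, a log2 fold change of −0.58 (SE 0.11, adjusted p = 0.00875 from edgeR), and *Elovl1* had −0.40. In lung without the library labelled null lung 1, 8 of 16 were called, 3 higher and 5 lower, beside 37.0% of all genes, 18.0% higher and 19.0% lower. *Fads3* was at 216 to 229 CPM in WT and 111 and 112 CPM in null lungs (−1.0, SE 0.10, adjusted p = 0.000782 from edgeR), *Elovl1* had −0.86, and *Elovl5* had 0.71. With that library the values were −1.35, −1.15 and 0.35, and none was called. *Elovl1* thus fell in liver and, without that library, in lung. For *Fads3* the difference between tissues was −1.17 (SE 0.17, adjusted p = 0.00742 from edgeR) without the library labelled null lung 1 and −1.54 (SE 0.45, adjusted p = 0.172) with it.

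Other regulators of lipogenic transcription had 10 of 19 genes called in liver, 6 higher and 4 lower, beside 26.9% of all genes, with a median of 0.27. Without null liver 1 the number was 9. *Insig1*, which holds SREBPs in the endoplasmic reticulum and is itself one of their targets, was at 117 to 127 CPM in WT and 407 to 482 CPM in null livers, a log2 fold change of 1.85 (SE 0.11, adjusted p = 0.00164 from edgeR). *Ppargc1b*, a coactivator of SREBP-1, was at 3.72 to 6.09 CPM in WT and 18.6 to 28.1 CPM in null livers (2.09, SE 0.25, adjusted p = 0.00301 from edgeR), and *Mlx*, the partner of ChREBP, fell from 39.7 to 50.6 CPM to 22.3 to 27.5 CPM (−0.80, SE 0.13, adjusted p = 0.00661 from edgeR). In lung without the library labelled null lung 1, 7 of 19 were called, 4 higher and 3 lower, a share close to the 37.0% of all genes. Among them were *Cebpa* (0.95), *Rxra* (0.83) and *Akt2* (0.54), which with that library had 0.42, 0.55 and 0.52 and were not called. *Insig1* differed between the tissues. It was at 55.2 to 83.0 CPM in WT and 40.9 to 52.4 CPM in the 3 null lungs, and lung minus liver was −2.28 (SE 0.25, adjusted p = 0.0189 from edgeR) with all 12 libraries and −2.30 (SE 0.26, adjusted p = 0.00248) without the library labelled null lung 1. With the replicate block and all 12 libraries the value was −2.26 and the call was lost (adjusted p = 0.105 from edgeR), as 0 of all genes were called in that fit and 2224 had an unadjusted p under 0.05. With the block and without that library it was −2.36 (adjusted p = 0.0024 from edgeR). *Srebf2* (−0.86) and *Ppargc1b* (−1.57) were called without the library labelled null lung 1, and had −1.06 and −0.17 with it, not called.

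Glycerolipid and triacylglycerol assembly had 8 of 12 genes called in liver, 3 higher and 5 lower, beside 26.9% of all genes, and without null liver 1 the number was 5, beside 23.8%. *Lpin2*, a phosphatidate phosphatase, was at 252 to 316 CPM in WT and 725 to 837 CPM in null livers (1.41, SE 0.14, adjusted p = 0.0021 from edgeR). *Dgat1*, which makes triacylglycerol, fell by 0.64 on the log2 scale (SE 0.10, adjusted p = 0.00653 from edgeR). *Dgat2*, at 270 to 309 CPM in WT and 248 to 304 CPM in null livers, was not called (−0.10, SE 0.12, adjusted p = 0.586 from edgeR). *Agpat2*, an acyltransferase of the same route, was at 202 to 282 CPM in WT and 82.0 to 137 CPM in null livers (−1.31, SE 0.23, adjusted p = 0.00735 from edgeR). In lung without the library labelled null lung 1, 8 of 13 were called, 5 higher and 3 lower, beside 37.0% of all genes. *Lpin1* (1.76) and *Lpin2* (1.46) rose and *Agpat1* (−1.09) fell, *Lpin2* at 141 to 162 CPM in WT and 396 and 436 CPM in null lungs. With that library the values were 1.45, 0.95 and −0.99, and none was called. *Agpat9* differed between tissues, by 1.37 (SE 0.24, adjusted p = 0.0454 from edgeR) with all 12 libraries and 1.43 (adjusted p = 0.0129) without the library labelled null lung 1, as did *Agpat6* in the latter (0.93). With all 12 libraries the *Agpat9* call was lost with the replicate block (1.37, adjusted p = 0.105 from edgeR) and without null liver 1 (1.25, adjusted p = 0.0995 from edgeR), while the block without the library labelled null lung 1 kept it (1.28, adjusted p = 0.0095 from edgeR).

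Phosphatidylcholine synthesis and surfactant lipid transport had 2 of 9 genes called in liver, beside 26.9% of all genes, and 2 of 9 in lung without the library labelled null lung 1, beside 37.0%, each time 1 higher and 1 lower. Without null liver 1 the number in liver was 3. *Chka*, the choline kinase that begins the route, was at 46.9 to 49.1 CPM in WT and 72.4 to 106 CPM in null livers (0.87, SE 0.15, adjusted p = 0.00686 from edgeR), and at 67.6 to 78.5 CPM in WT lungs and 148 and 152 CPM in null lungs 2 and 3 (1.03, SE 0.10, adjusted p = 0.000782 from edgeR). *Cept1* fell in liver (−0.53), and *Lpcat1*, which remodels surfactant phosphatidylcholine, had −0.35 in lung (SE 0.11, adjusted p = 0.0404 from edgeR). With the library labelled null lung 1, *Chka* had 0.63 and *Lpcat1* −0.91 in lung, not called. *Abca3*, the lipid pump of surfactant storage, was at 426 to 540 CPM in WT lungs and 320 and 512 CPM in null lungs 2 and 3. With all 6 lung libraries, 0 genes of these 5 lists were called by edgeR, where 0.327% of all genes were, and DESeq2 called 2 of the supply genes, 4 elongases and desaturases, 3 regulators, 4 glycerolipid genes and 0 choline genes, where it called 11.8% of all genes.

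**Figure D5:**
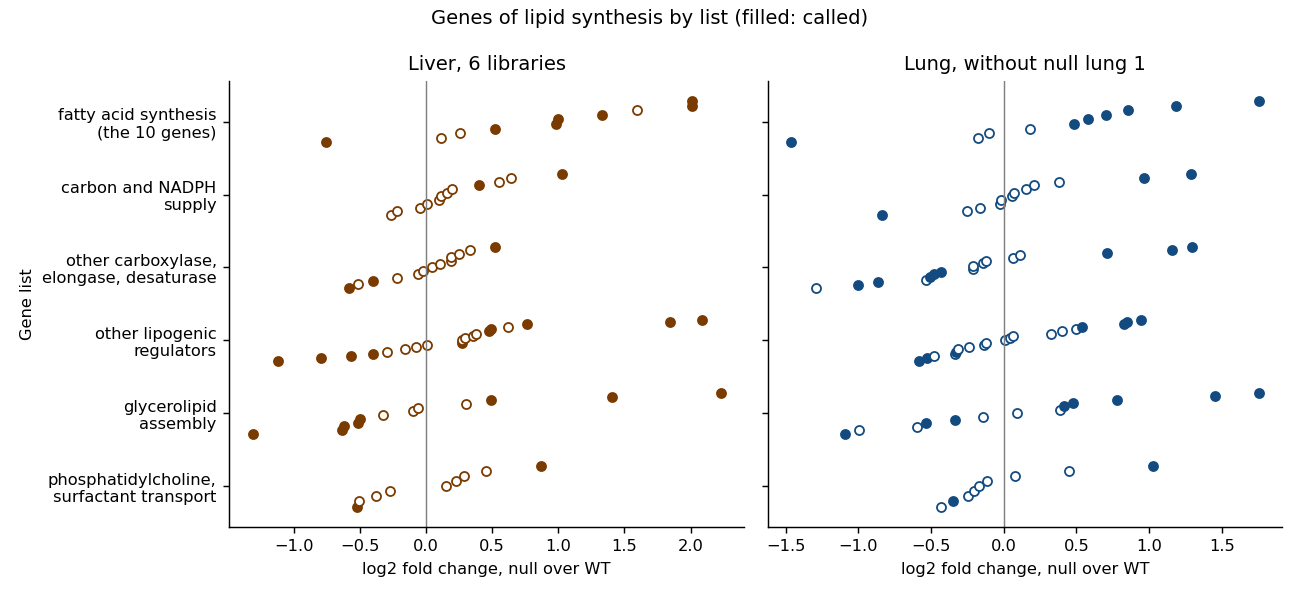
log2 fold change of null over WT (x axis) for each tested gene of the 10 and of the 5 neighbouring lists (y axis), in liver (6 libraries, left) and in lung without the library labelled null lung 1 (5 libraries, right). 1 point is 1 gene and filled points passed edgeR's call; in liver 6 of the 10 genes of fatty acid synthesis are filled above 0 and 1 below.

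Between WT tissues, the median log2 fold changes of the 5 lists (liver over lung) lay between 0.15 and 1.02, beside −0.41 for the 10 genes, and the counts that follow stand beside 77.0% of all genes called, 37.2% higher and 39.8% lower in liver. Of the supply genes, 10 of 12 were called higher in liver, led by *Pklr* (213-fold), *Mpc1* (8.93-fold) and *Mpc2* (5.78-fold), the latter pair forming the mitochondrial pyruvate carrier. Elongases and desaturases had 8 genes higher and 5 lower of 15 tested, with *Elovl2* 407-fold higher and *Fads3* 18.0-fold lower in liver, while *Scd4* was at 0.843 to 1.21 CPM in lung and 0.0704 to 0.165 CPM in liver, close to the limit of 3 reads. Glycerolipid genes had 9 higher and 2 lower of 13, with *Dgat2* (16.7-fold), *Pnpla3* (14.4-fold) and *Agpat9* (9.56-fold) higher in liver. Among choline genes, 4 were higher and 4 lower of 9. *Pemt*, a route to phosphatidylcholine known from liver, was 111-fold and *Pcyt1b* 13.7-fold higher in liver, whereas *Abca3* was 9.26-fold lower. Regulators had 7 higher and 5 lower of 19, *Ppargc1b* 6.43-fold and *Rxra* 3.67-fold higher, and *Mid1ip1*, the partner of Spot 14, 3.59-fold lower in liver.

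To see which genes followed *Fasn*, log2 CPM was centred on the mean of each tissue and correlated over the 12 libraries, as a description in which the points share library and depth. Genotype means were not removed, so shifts between WT and null mice enter these correlations, which in part restate the genotype results above. Among 16154 genes, those with the highest Pearson correlation were *1700017B05Rik* (0.99), *Sesn2* (0.98), *Slc3a2* (0.98), *Rhbdf2* (0.97) and *Fam129b* (0.97). The library labelled null lung 1 was low in *Fasn* and weighed on this order. Without it, over 11 libraries, the leading genes were *Slc35d1* (0.99), *Sesn2* (0.98), *Cdk6* (0.98), *1700017B05Rik* (0.98) and *Slc25a29* (0.98), so that *Sesn2* and *1700017B05Rik* led in both. Within the pathway, *Srebf1* (0.87), *Acaca* (0.86), *Scd2* (0.83) and *Scd1* (0.79) followed *Fasn* most closely over the 11 libraries, at ranks 478, 595, 890 and 1376. *Elovl6* (0.65), *Mlxipl* (0.50) and *Thrsp* (0.37) followed less, *Acly* had −0.12, and *Me1* had −0.60.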

How the data were processed

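RNA was measured in 12 libraries, 3 each of WT liver, null liver, WT lung and null lung, from stranded poly(A) selection and paired reads of 75 bases. The deposited values are counts of reads per gene, which the authors made from reads aligned to mm10. The submitters' processing notes name FastQC, STAR 2.5.2a and DESeq2, and the counting program, annotation and strand setting are not given in the sources used here. Depth was 26759463 to 42914295 counts, which sets the precision of low genes such as *Thrsp*. In the gene column, 27 names had been turned into dates, and none of the 10 genes was among them.

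Each comparison was fitted on all genes with edgeR 4.0.16 in R 4.3.3 (filterByExpr, TMM factors, quasi-likelihood test, Benjamini-Hochberg adjustment), within the 6 libraries concerned, or in 12 for the difference between tissues. Genes were called at an adjusted p under 0.05 and a change of 1.2-fold or more, a threshold taken from the study's methods. Standard errors were derived from the fold change and its F statistic. For single genes there were also two-sided exact permutation tests on log2(CPM + 0.5). Levels per kb used exon lengths of GENCODE M21 (GRCm38), which with GC content were found for 98.3% of genes. Tables were made with pandas 2.3.3 and numpy 2.4.6. The fits were also run on counts simulated from their own model with large planted changes. That simulation did not cover smaller changes or a library unlike its group, and no result here rests on it. Within each group, no libraries were copies of each other. The p-values rest on the spread between the 3 mice of a group, which edgeR estimates with help from all genes. In fits without the library labelled null lung 1, the null lung group held 2 mice.

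All 10 genes are described, and in the lists the 3 called genes of smallest p in each comparison were named, or between tissues the 3 of largest fold, with the 5 genes most correlated with *Fasn*. One gene that this rule names is not reported here. The 10 genes and the lists were chosen with earlier results of these data known. Alternatives were DESeq2 1.42.0, other scalings and filters, GC content and length trends, leaving out each library, and the replicate number as a block. Within a genotype, deviations of liver and lung libraries of the same number from their group means correlated at 0.200, 0.186 and 0.143 in WT and 0.447, 0.360 and 0.383 in null mice. The numbers were taken to pair liver and lung on that basis, since each mouse gave both tissues. WT pairs of unlike number had −0.152 to −0.0259. In null mice, liver 2 with lung 3 had 0.235 and liver 3 with lung 2 had 0.199. Null pairs of number 1 with 2 or 3 had −0.420 to −0.328. Number 1 marks the null libraries that carried muscle genes, and how far they set the null values was not tested. Fits without the library labelled null lung 1 beyond the plain one were chosen after seeing the data.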

Additional observations from a re-analysis of the deposited data

Results flagged for a closer look

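Both genes listed here drew attention because the effect of genotype differed between liver and lung in a test of the difference itself, without the library labelled null lung 1. For *Me1* the difference, lung minus liver, was 0.96 on the log2 scale, and for *Scd2* it was −1.41. With all 12 libraries neither difference was called by edgeR, at 0.78 (adjusted p = 0.242) for *Me1* and −1.71 (adjusted p = 0.0886) for *Scd2*.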

How the results depend on the processing

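Values are numbers of the 10 genes called, or log2 fold changes. For null against WT liver, 2 genes were called with all 12 libraries in 1 fit (11.9% of all genes), and 4 to 7 with a library left out (11.3% to 23.8%). *Acly* was at −0.0094 with total counts and from −0.048 to 0.19 with a library left out. For lung, 1 gene was called by DESeq2 (11.8% of all genes) and 1 with all 12 libraries in 1 fit (14.1%), and 0 to 7 with a library left out, the highest without null lung 1 (37.0%). Without null lung 1, 7 were called by DESeq2 (32.8%) and 6 each with total counts (38.5%), with GC content and length trends removed (38.3%), and with the replicate block (35.9%). *Me1* in lung was at −0.023 with upper-quartile factors, −0.11 with total counts and −0.070 to 0.18 with a library left out. Leaving out a library gave −0.16 to 0.48 for *Acaca*, −0.12 to 0.70 for *Fasn*, −0.10 to 0.59 for *Elovl6* and −1.46 to 2.46 for *Thrsp*, and the replicate block gave −0.17 for *Fasn*. Without null lung 1, DESeq2, total counts, the trends and the block gave −0.08, −0.25, −0.13 and −0.17 for *Elovl6*, and −1.44, −1.61, −1.33 and −1.32 for *Thrsp*. The number of genes without overlap in lung was 2 to 8 with a library left out, the highest without null lung 1, where 60.7% of 16155 genes did not overlap. For the other sets with a library left out the share of all genes was not taken, so those counts cannot be weighed.

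For WT liver against WT lung, 6 genes were called with all 12 libraries in 1 fit (62.7%) and 4 between null tissues (45.8%), where *Acly* was at 0.26 and *Acaca* at 0.056. *Acaca* was at 0.39 with the trends removed, and at 0.39 with the block as well, which changed no call of the 10. For the difference between tissues, DESeq2 called 1 (2.99%), and leaving out a library gave 0 to 2. Without null lung 1, DESeq2 called 4 (8.55%), total counts 2 (3.36%), the trends 2 (5.38%) and the replicate block 4 (5.77%), and without null liver 1 as well 2 (5.18%). *Acaca* was then at 0.013 with the trends removed. *Thrsp* was at −1.52 with the block, −1.47 with the block and the trends, and −3.03 to 0.87 with a library left out. Without null lung 1 it was at −3.05 (DESeq2), −3.09 (total counts), −2.95 (trends) and −3.18 (block), and −3.16 without null liver 1 as well. The cause of these changes was not tested. WT and null libraries of the same number in a tissue did not deviate together (−0.077 to 0.128), so the block has no basis in the design there. Over all genes, calls higher and lower were 1434 and 2666 with upper-quartile factors and 1069 and 2284 with total counts in liver, 1878 and 4245 with total counts in lung without null lung 1, and 2997 and 10133 with total counts between WT tissues, against about equal numbers with TMM. The median over all genes was then −0.11 with total counts in liver and −0.16 in lung without null lung 1, beside 0.02 and −0.01. With 3 mice a group, low counts limit *Thrsp* and, in lung, *Mlxipl*.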
